A study of Mus musculus with 28 samples.

Results

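The 6 long non-coding RNA genes Malat1, Neat1, Kcnq1ot1, Gas5, Snhg1 and Snhg8 were followed across 28 poly(A) RNA-seq libraries of mouse bone marrow derived macrophages (macrophages grown in culture from wild-type bone marrow). They are 6 of the 55487 genes in each library. The genes were selected by name, as nuclear-retained or snoRNA-host transcripts with a high measured level in these libraries, so their levels are given as a description with no test of abundance.

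The libraries form 7 groups of 4. Cells of the M0 group had 48 h in non-polarizing conditions, and those of the other 6 groups had 48 h with IFN-γ or with IL-10, each at 50 ng/mL. For each cytokine the macrophages were sorted by uptake of apoptotic T cells. By the labels, Treg-phagocytic macrophages had taken up regulatory T cells, Tconv-phagocytic ones had taken up conventional CD4 T cells, and non-phagocytic ones had no uptake. The T cells had been killed with ATP/NAD+ and carried an anti-CD4 antibody with BV421 or Ax647 as the dye. The M0 labels name no uptake status, so a comparison with M0 cannot tell the cytokine apart from co-culture and sorting. Nothing in the labels says that replicates came from separate animals or cultures, and p-values then measure only the spread between these libraries, which may be technical.

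Malat1 and Neat1 are neighbouring genes whose RNAs stay in the nucleus. Malat1 RNA collects in nuclear speckles, where splicing factors are stored. The long isoform of Neat1 is the scaffold of paraspeckles, nuclear bodies built with proteins such as SFPQ and NONO. Kcnq1ot1 is an imprinted antisense RNA that silences neighbouring genes in cis. Gas5, Snhg1 and Snhg8 carry small nucleolar RNAs (snoRNAs, guides for ribosomal RNA modification) in their introns, and their spliced exons are translated little and are often removed by nonsense-mediated decay. In macrophages, Malat1 and Neat1 are known for their links to inflammatory signalling.

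On GRCm38, the build named in the submitters' processing notes as mm10, the genes lie as follows in the GENCODE vM21 annotation. Malat1 (ENSMUSG00000092341) is at chr19:5795690-5802672 on the minus strand, with 4 annotated transcripts of up to 6983 nt. Neat1 (ENSMUSG00000092274) is at chr19:5824708-5845478, also minus, with 4 transcripts of up to 20771 nt. Kcnq1ot1 (ENSMUSG00000101609) is at chr7:143203458-143296549, minus, as a single transcript of 93092 nt opposite to Kcnq1. Gas5 (ENSMUSG00000053332) is at chr1:161034422-161038539, plus, with 25 transcripts and 10 snoRNA records on the same strand within it. Snhg1 (ENSMUSG00000108414) is at chr19:8723475-8726443, plus, with 18 transcripts and 8 snoRNA records, and Snhg8 (ENSMUSG00000104960) is at chr3:123507552-123508404, minus, with 3 transcripts and 1 snoRNA record. Gas5 overlaps Zbtb37 and Malat1 overlaps Gm37376 on the opposite strand, and without strand in the counting such reads cannot be told apart.

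The 3' ends of Neat1 and Malat1 are shown because the libraries were made from poly(A) RNA, which decides which isoforms can be counted. The long Neat1 transcript ends in an A-rich tract encoded in the genome and has no AATAAA signal in the window printed. The short Neat1 transcript has AATAAA 14 bases before its end. Malat1 carries a genome-encoded run of 12 A, 298 bases before its annotated end, and an AATAAA 16 bases before that end. As background, the mature ends of Malat1 and of long Neat1 are made by RNase P cleavage and are protected by a triple helix in place of a poly(A) tail. The sequences are from GENCODE vM21, 5' to 3', with the A-rich tract, the run of A or the AATAAA in capitals.
Long Neat1, chr19:5824708-5824817, minus: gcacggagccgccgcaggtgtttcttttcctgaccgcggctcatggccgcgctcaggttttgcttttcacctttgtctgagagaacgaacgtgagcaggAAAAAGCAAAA
Short Neat1, chr19:5842307-5842416, minus: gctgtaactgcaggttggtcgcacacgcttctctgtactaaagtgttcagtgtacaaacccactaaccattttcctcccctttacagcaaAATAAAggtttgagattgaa
Malat1 run of A, chr19:5795978-5796079, minus: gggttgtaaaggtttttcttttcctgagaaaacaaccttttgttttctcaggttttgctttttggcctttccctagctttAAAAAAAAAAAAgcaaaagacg
Malat1 end, chr19:5795690-5795749, minus: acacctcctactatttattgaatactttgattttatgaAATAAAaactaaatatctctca
The deposited value of a gene does not separate its isoforms, so long and short Neat1 were not distinguished here.

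The start sites of the snoRNA hosts are shown because such genes are known for a 5' terminal oligopyrimidine tract, a C followed by further pyrimidines at the first base, which they share with mRNAs of the translation machinery. The windows are from RefSeq on GRCm38.p6, with 20 bases before the annotated start, and 5 of the 6 members matched an entry there. For Gas5, only the window with the highest start coordinate was used, with its annotated start at 161035166. A run of C and at least 4 more pyrimidines beginning within 5 bases of the start is in capitals.
Gas5, chr1:161035146-161035205, plus: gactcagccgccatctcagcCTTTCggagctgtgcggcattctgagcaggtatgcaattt
Snhg8, chr3:123508297-123508356, minus: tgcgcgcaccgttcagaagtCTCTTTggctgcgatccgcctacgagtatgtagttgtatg
Snhg1, chr19:8723467-8723526, plus: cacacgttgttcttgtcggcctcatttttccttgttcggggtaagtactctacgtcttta
Such a run stands at the annotated start of Gas5 and Snhg8, and not by this rule at that of Snhg1, Malat1 or Kcnq1ot1. It was found in 18.3% of 32851 RefSeq promoter windows. The IFN-γ activated site TTCNNNGAA (both strands) was in 8.30% of all windows of 250 bases before to 50 after a start, and the interferon-stimulated response element (GAAA, any 2 bases, GAAA; both strands) in 3.44%. Neither was in the windows of Malat1, Kcnq1ot1, Gas5, Snhg1 or Snhg8.

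Levels are in TPM, which divides reads by transcript length and by library size. In poly(A) RNA, the level of a gene also depends on how much of its RNA was captured. For mature Malat1 and long Neat1, which lack a poly(A) tail, this may differ from other genes. Ranks between genes are therefore ranks of the measured level only. Over the 28 libraries Neat1 had a mean of 807.7 TPM, the highest of 9911 annotated long non-coding RNA genes. Malat1 followed at rank 4 with 488.6 TPM, Gas5 at rank 5 with 405.4, Snhg8 at rank 7 with 179 and Snhg1 at rank 17 with 72.9. Kcnq1ot1 went against the description as abundant, with a mean of 0.141 TPM, at rank 1621 among the long non-coding RNA genes. The other 5 genes were above 39 TPM in every library. They therefore passed the filter of the tests, at least 1 TPM in at least 4 libraries, in every group, and Kcnq1ot1 did not pass it.

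Depth was read from the steps of low TPM values, relative to the deepest library. Relative depth lay at 69.0% to 100% for M0, at 49.3% to 90.3% for the 12 IL-10 libraries and at 11.5% to 24.1% for the 12 IFN-γ libraries, so values are least precise under IFN-γ. Macrophage markers were high in every library, for example Csf1r at 385 to 963 TPM. Summed T cell markers were at 222 to 350 TPM in M0, 697 to 1255 TPM in the IFN-γ groups and 200 to 376 TPM in the IL-10 groups. Under IFN-γ they did not separate the sorts, at 697 to 1111 TPM in non-phagocytic, 837 to 1034 TPM in Tconv-phagocytic and 808 to 1255 TPM in Treg-phagocytic libraries. Summed Treg markers overlapped too, at 122 to 155.5, 134 to 153 and 127 to 152 TPM in the same order. Cd3e, part of the T cell receptor complex, was above 0 in all 28 libraries. The neutrophil gene Ly6g was listed at 0 in all 12 IFN-γ libraries, the least deep ones, and in 3 of the 4 M0 libraries. Summed neutrophil markers were at 94.9 to 99.1 TPM in M0, 62.6 to 103 TPM in the IFN-γ groups and 99.55 to 123 TPM in the IL-10 groups.

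**Figure D1:**
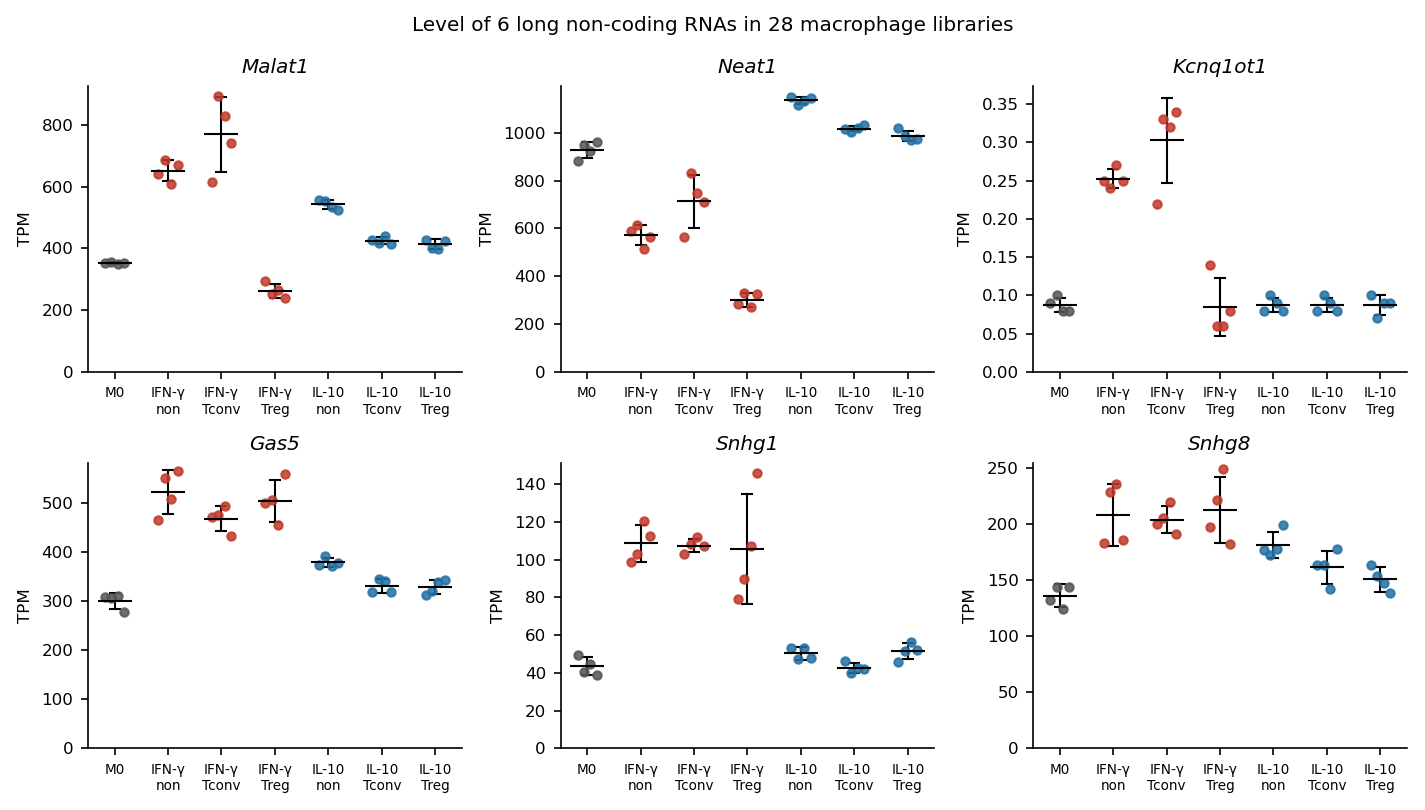
TPM of each of the 6 genes (one panel each, linear axis from 0) in the 28 libraries, by group. Points are libraries, and the bars are the mean and SD of 4 libraries. Malat1, Neat1 and Kcnq1ot1 sit lower in the IFN-γ Treg-phagocytic libraries than in the other IFN-γ libraries, while Gas5, Snhg1 and Snhg8 sit at a similar height in the 3 IFN-γ groups.

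IFN-γ macrophages that had taken up Treg cells were compared with those that had taken up Tconv cells. Since the macrophages were sorted by uptake, an effect of the T cell taken up cannot be told apart from differences that preceded uptake. The nuclear RNAs Malat1 and Neat1 were lower after Treg uptake, at 0.373 and 0.463 of the Tconv-phagocytic level after scaling. The 3 snoRNA hosts did not pass the test. Malat1 was at 294, 251, 265 and 239 TPM in the Treg-phagocytic libraries. It was at 614, 894, 829 and 741 TPM in the Tconv-phagocytic libraries. All 4 Treg-phagocytic libraries were below all 4 Tconv-phagocytic ones, with a gap between the groups wider than the whole range of the Treg-phagocytic group. On the scale of log2(scaled TPM + 1), the change was -1.42 (SE 0.107, limma adjusted p = 0.000841).

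Neat1 moved in the same direction. It was at 284, 328, 271 and 324 TPM in the Treg-phagocytic libraries and at 564, 832, 746 and 709 TPM in the Tconv-phagocytic libraries. The groups did not overlap, and the lowest Tconv-phagocytic library, BV421-1, was the lowest of its group for Malat1 too. The log2 fold change was -1.11 (SE 0.122, limma adjusted p = 0.00192). In this comparison 12.5% of the 13631 genes tested were called at an adjusted p under 0.05, 5.16% higher and 7.38% lower (704 and 1006 genes, against 244 and 1367 on TPM without scaling), and 2 of the 5 tested members were called, both lower. With libraries of 1 dye alone by the titles, 2 against 2, both calls were lost at nearly the same sizes: Malat1 was at -1.44 for BV421 and -1.40 for Ax647, and Neat1 at -1.09 and -1.13, with limma adjusted p of 0.259 and 0.103 for each gene. Both fits called 0 of the 13631 genes, so the lost calls are not particular to Malat1 and Neat1. By the library names, which disagree with the titles for Treg-phagocytic libraries, each of these fits sets 1 dye against the other. Over all alternatives the adjusted p of Malat1 ran from 1.11e-13 to 0.259 and that of Neat1 from 7.62e-11 to 0.259.

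Gas5, the growth arrest-specific snoRNA host, was at 500.5, 506, 455 and 559 TPM in Treg-phagocytic libraries and at 471, 475, 495 and 433 TPM in Tconv-phagocytic ones. Its scaled values did not overlap between the groups, while its TPM values did. The log2 fold change of 0.22 (SE 0.0755) missed the threshold (limma adjusted p = 0.0945), and only the model of all 28 libraries called it (0.00617, range over alternatives 0.00617 to 0.546). Snhg1 was at 79.4, 89.9, 107 and 146 TPM against 103, 108, 112 and 107 TPM, so the Treg-phagocytic libraries spread on both sides of the Tconv-phagocytic ones. Its log2 fold change was 0.05 (SE 0.177, limma adjusted p = 0.889), with a sign that depended on the scaling and on single libraries. Snhg8 was at 0.17 (SE 0.0918, limma adjusted p = 0.284), with overlapping groups.

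Kcnq1ot1 was read at 0.14, 0.06, 0.06 and 0.08 TPM in IFN-γ Treg-phagocytic libraries and at 0.22, 0.33, 0.32 and 0.34 TPM in Tconv-phagocytic ones. Its log2 ratio, from scaled TPM with no pseudocount, was -1.79, or 3.45-fold lower, and the groups did not overlap. An exact two-sided permutation test gave p = 0.0286, the smallest that 4 against 4 libraries allow, and 0.0629 after Benjamini-Hochberg adjustment over 11 comparisons, so it was not called. This smallest p can pass after adjustment only if more of the 11 comparisons reach it than did here. The missing call therefore does not show that the levels were equal. These values stand for an estimated 9.68 to 39.6 reads per Treg-phagocytic library, and 2 decimals leave them coarse. Kcnq1ot1 overlaps Kcnq1 on the opposite strand, and whether the quantification used strand is not given in the sources used here, although the library kit was directional. Kcnq1 itself was at 0 to 0.56 TPM in the 12 IFN-γ libraries and listed at 0 in 6 of them.

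Other properties moved with this comparison. The tested genes were split into 10 equal sets by the length of their longest annotated transcript. The median log2 fold change was 0.00 in set 1, the shortest, 0.16 in set 2 and -0.12 in set 10, the longest, which holds both Malat1 and Neat1. The 10th percentile of that set was -0.68, and both genes lay below it. Among 909 other annotated long non-coding RNA genes tested, 106 were called lower and 5 higher, with a median of -0.20, against a median of 0.04 over all genes. The mitochondrial share of TPM was 5.78% to 6.24% in Treg-phagocytic and 7.69% to 8.60% in Tconv-phagocytic libraries, and relative depth was 11.5% to 20.2% and 20.7% to 24.1%. Summed T cell markers overlapped, at 808 to 1255 TPM and 837 to 1034 TPM, with 2 of 20 markers called higher. Summed macrophage markers were at 29883 to 30571 TPM after Treg and 24450 to 27464 TPM after Tconv uptake, with 8 of 14 called higher and 1 lower. Of 24 IFN-γ response genes, 15 were lower and 0 higher (median -0.50). The part of length, depth, mitochondrial share, cell markers and IFN-γ response in the falls of Malat1, Neat1 and Kcnq1ot1 was not tested. In these sorted but mixed samples, fewer cells of a type and less RNA per cell cannot be told apart.

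**Figure D2:**
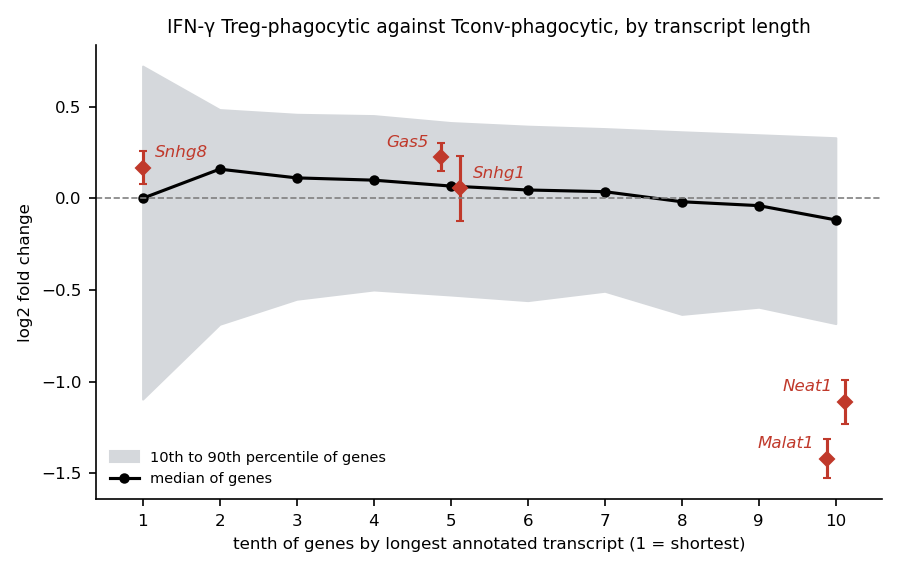
Log2 fold change of IFN-γ Treg-phagocytic against Tconv-phagocytic libraries by set of transcript length, from 1 (shortest) to 10 (longest). The line is the median of the genes in each set, the band runs from the 10th to the 90th percentile of genes, and the diamonds are the 5 tested members with the standard error of the fit. Malat1 (-1.42) and Neat1 (-1.11) lie below the band, and the 3 snoRNA hosts lie inside it.

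Genes for the proteins that build the bodies around these RNAs were counted in the same comparison, by their RNA. No protein was measured. Of 24 genes for nuclear speckle proteins, 9 were called lower and 0 higher (median -0.25). The largest falls were in Srrm2 (log2 -1.25, SE 0.120, limma adjusted p = 0.00126), for a scaffold protein of speckles, and Luc7l3 (-0.99, SE 0.119, 0.00234), for a splicing factor. Of 20 genes for paraspeckle proteins, 7 were lower and 1 higher (median -0.25). Tardbp, an RNA-binding protein, was among those that fell (-0.73, SE 0.146, limma adjusted p = 0.0155), and Hnrnpa1 rose by 0.19 (SE 0.0496, 0.0394). Among 11 genes next to Malat1 and Neat1 on the chromosome, 2 were lower and 1 higher with a median of 0.01. Pola2, a subunit of DNA polymerase alpha, fell by 1.38 on the log2 scale and Cdc42ep2 rose by 0.88 (limma adjusted p = 0.00689 and 0.019).

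Genes tied to the snoRNA hosts did not share one direction. Of 16 tested translation factors and related genes with 5' terminal oligopyrimidine mRNAs, 11 were called higher and 0 lower (median 0.24), led by Eef1d (0.49, SE 0.0478, limma adjusted p = 0.00127) and Eef1g (0.35, SE 0.0403, 0.00214), subunits of elongation factor 1. Of 10 other snoRNA hosts tested, 1 was higher and 2 were lower (median 0.07). Zfas1 rose by 0.30, while Snhg20 fell by 0.90 and Snhg10 fell by 1.94 in log2 units (limma adjusted p = 0.0259, 0.048 and 0.0293), and Snhg10 was near the filter at 0.98 ± 1.14 TPM against 5.62 ± 1.11 TPM (SD, n = 4). Of 18 genes for snoRNP proteins, which package snoRNAs, 2 were higher (Snu13 and Nop58) and 0 lower. Of 22 nonsense-mediated decay factors, Etf1 was higher and Casc3, a core protein of the exon junction complex, was lower (-0.77, SE 0.128, limma adjusted p = 0.00723). Without scaling, 3 of the 16 oligopyrimidine genes were called higher (median 0.12) and 0 of the 18 snoRNP genes, and the medians of the 10 hosts and of the 11 chromosomal neighbours turned below 0 (-0.05 and -0.11). The genes for speckle and paraspeckle proteins had 12 and 9 called lower without scaling.

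**Figure D3:**
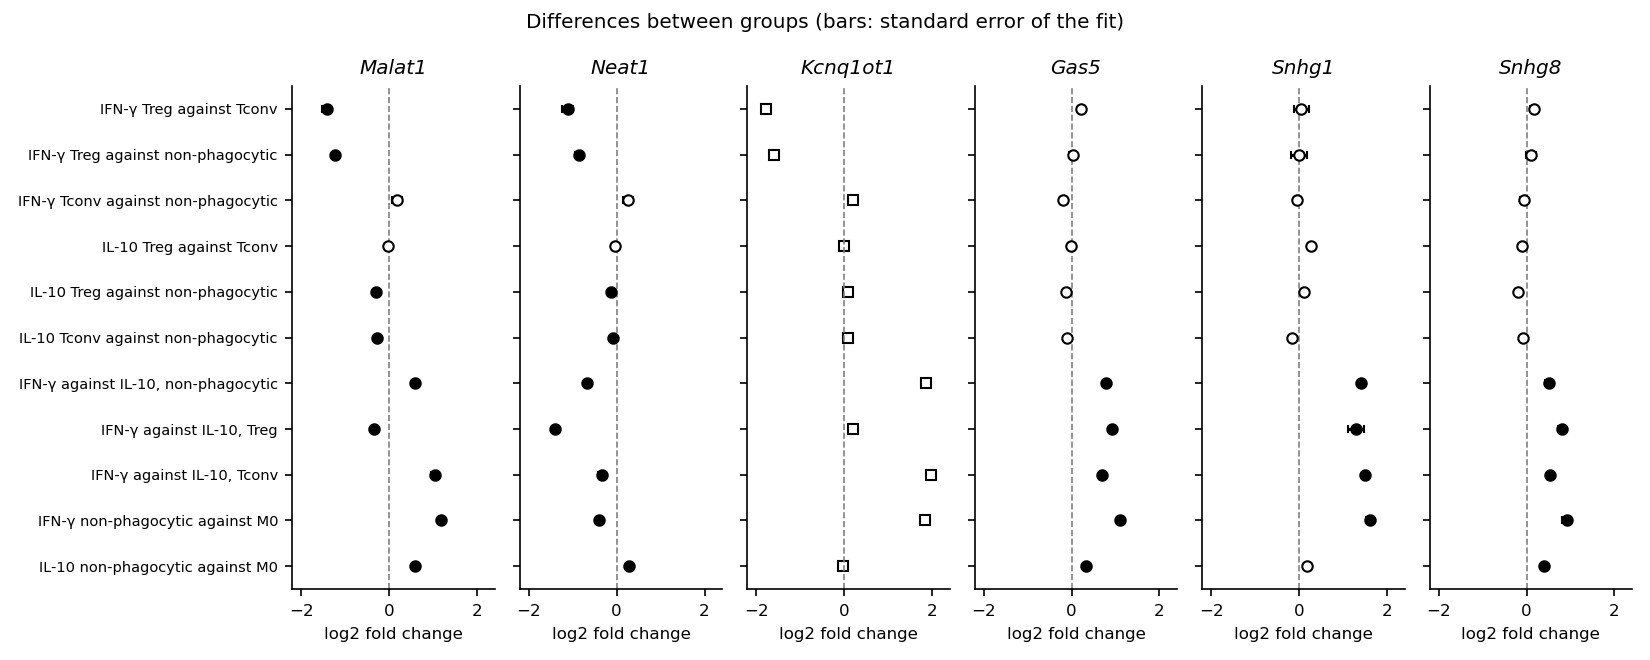
Log2 fold changes of the 6 genes in 11 comparisons. Circles are fits with their standard error, filled where the adjusted p was under 0.05, and the squares for Kcnq1ot1 are log2 ratios of scaled TPM that were tested by permutation and not called. That test has a smallest possible p of 0.0286 before adjustment, which limits its calls. Malat1 and Neat1 are filled and negative for IFN-γ Treg against both other IFN-γ groups, and the snoRNA hosts are filled and positive where IFN-γ is set against IL-10 or M0.

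Against IFN-γ non-phagocytic macrophages, the Treg-phagocytic libraries showed the same pair of genes lower, and this comparison shares its Treg-phagocytic libraries with the one above. The non-phagocytic libraries had Malat1 at 642, 688, 610 and 671 TPM and Neat1 at 591, 612, 515 and 564 TPM. No Treg-phagocytic library reached these levels for either gene. Malat1 fell by 1.24 (SE 0.0607, limma adjusted p = 0.000166) and Neat1 fell by 0.85 (SE 0.0903, 0.00195) on the log2 scale. These were 2 of the 5 tested members, where 8.33% of all genes were called. Gas5, Snhg1 and Snhg8 were within 0.11 of 0 on the log2 scale, with limma adjusted p of 0.661 to 1. Kcnq1ot1 was at 0.25, 0.24, 0.27 and 0.25 TPM in the non-phagocytic libraries, above every Treg-phagocytic library (log2 ratio -1.59, exact permutation p = 0.0286, adjusted 0.0629). Here too, the mitochondrial share was lower after Treg uptake, at 5.78% to 6.24% against 7.87% to 8.74%. Summed T cell markers overlapped, at 808 to 1255 TPM in Treg-phagocytic and 697 to 1111 TPM in non-phagocytic libraries. Macrophage markers had 10 higher and 1 lower of 14, IFN-γ response genes 13 lower and 0 higher of 24, and genes for nuclear speckle proteins 11 lower and 0 higher of 24. The part of these in the falls was not tested.

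Between IFN-γ Tconv-phagocytic and non-phagocytic macrophages, 0 of the 5 tested members passed the test (limma adjusted p 0.683 to 0.915). Neat1 and Gas5 had an unadjusted p under 0.05 (0.042 and 0.0182). Of all genes, 1 (0.00734%) was called, 870 had an unadjusted p under 0.05, and the model of all 28 libraries called 116. Malat1 was at a mean of 769.6 ± 121 TPM against 652.7 ± 34.3 TPM (SD, n = 4), a log2 change of 0.18 (SE 0.104). Neat1 was at 712.9 ± 111 TPM against 570.6 ± 41.8 TPM (SD, n = 4), a log2 change of 0.26 (SE 0.110). In both cases BV421-1 among the Tconv-phagocytic libraries fell within the non-phagocytic range.

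In IL-10 macrophages, 0 of the 5 tested members passed the limma test of Treg against Tconv uptake, where 1.39% of genes were called. Snhg1 was the one tested member with an unadjusted p under 0.05 (0.00408). Malat1 was at 429, 403, 398 and 426 TPM after Treg uptake and at 429, 418, 439 and 415 TPM after Tconv uptake, a log2 change of -0.04 (SE 0.0332). Neat1 was at 1018, 985, 970 and 974 TPM against 1014, 1005, 1019 and 1032 TPM (-0.04, SE 0.0217). The groups overlapped for both genes. Snhg1 had the largest difference of the tested members, 0.27 (SE 0.068, limma adjusted p = 0.122), at 45.9, 51.7, 56.6 and 52.2 TPM against 46.3, 39.7, 42.8 and 42.2 TPM.

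The difference between the cytokines was tested itself. The Treg against Tconv change was more negative under IFN-γ than under IL-10 by 1.38 for Malat1 (log2 difference -1.38, SE 0.116, limma adjusted p = 4.54e-06) and for Neat1 (-1.07, SE 0.127, 5.74e-05), 2 of the 5 tested members where 13.4% of genes were called. The Treg against non-phagocytic change differed too, by -0.93 for Malat1 (SE 0.071, limma adjusted p = 7.82e-07) and -0.73 for Neat1 (SE 0.0944, 0.000108), where 9.34% of genes were called. Gas5, Snhg1 and Snhg8 passed neither test (limma adjusted p 0.0999 to 0.79).

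Uptake under IL-10 came with small falls of the nuclear RNAs. Malat1 was at 557, 554, 535 and 526 TPM in IL-10 non-phagocytic libraries, above all 8 phagocytic IL-10 libraries. It fell by 0.31 with Treg uptake (SE 0.0327, limma adjusted p = 0.000944) and by 0.27 with Tconv uptake (SE 0.027, 0.00136) on the log2 scale. Neat1 was at 1148, 1115, 1133 and 1147 TPM in non-phagocytic libraries. It fell by 0.12 (SE 0.022, limma adjusted p = 0.0112) and by 0.08 (SE 0.0167, 0.0328). Without scaling, Neat1 fell by 0.20 and 0.16, since the log2 scaling factors differed by -0.08 in both comparisons. Thus 2 of the 5 tested members were called in each of these comparisons, where 11.4% and 6.02% of genes were called. The Neat1 call with Tconv uptake was lost without any 1 of 7 of the 8 libraries, that is all but IL-10 non-phagocytic library 2 (0.0569 to 0.0892). Both Neat1 calls were lost in the model of all 28 libraries (0.654 with Treg and 1 with Tconv uptake, ranges over alternatives 0.000805 to 0.654 and 0.00198 to 1).

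Gas5 was lower in phagocytic IL-10 libraries by 0.12 and 0.11 on the log2 scale without passing the threshold (limma adjusted p = 0.0529 and 0.0822), at 372 to 393 TPM in non-phagocytic and 313 to 345 TPM in phagocytic libraries. The scaled groups did not overlap. The Treg value was called under 5 alternatives (0.00691 to 0.439 over them all). The Tconv value was called without scaling (log2 -0.20, limma adjusted p = 0.011; its alternatives spanned 0.011 to 0.775). T cell markers rose with uptake under IL-10, 20 of 20 with Treg and 10 of 20 with Tconv cells, and summed to 337 to 376, 237 to 290 and 200 to 216 TPM in Treg-phagocytic, Tconv-phagocytic and non-phagocytic libraries. Summed stromal markers were at 22.9 to 26.4, 126 to 131 and 66.8 to 73.2 TPM, and summed B cell markers at 53.7 to 62.1, 21.2 to 30.3 and 22.1 to 23.5 TPM, in the same order. The part of these cell types in the small changes was not tested.

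**Figure D4:**
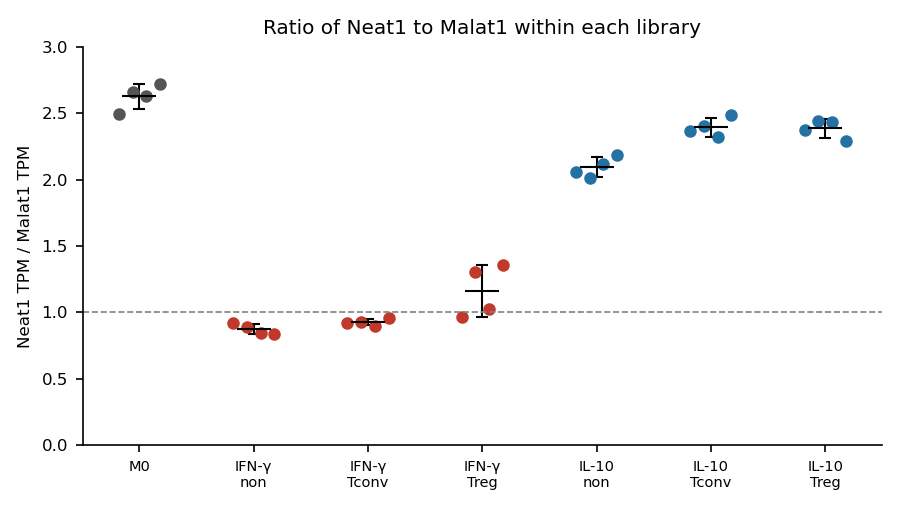
Ratio of Neat1 to Malat1 TPM within each library, by group, with the mean and SD of 4 libraries. The dashed line is a ratio of 1. M0 and IL-10 libraries lie between 2.01 and 2.72, and IFN-γ libraries between 0.840 and 1.35.

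The ratio of Neat1 to Malat1 within a library needs no scaling between libraries. It was 2.49, 2.66, 2.63 and 2.72 in M0, and 2.01 to 2.49 in the 12 IL-10 libraries. It was 0.920, 0.890, 0.845 and 0.840 in IFN-γ non-phagocytic libraries and 0.919, 0.930, 0.900 and 0.957 in IFN-γ Tconv-phagocytic ones. In IFN-γ Treg-phagocytic libraries it was 0.965, 1.31, 1.02 and 1.35, above every other IFN-γ library. No IFN-γ library overlapped with an M0 or IL-10 library. The ratio shows unequal change of the pair, and not which of them changed. Its size also depends on how much of each RNA was captured in poly(A) RNA.

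Set against M0, non-phagocytic IFN-γ macrophages had Malat1 higher and Neat1 lower. Malat1 rose from 354, 356, 351 and 353 TPM in M0, a tight group, to 610 to 688 TPM, a log2 change of 1.19 (SE 0.0421, limma adjusted p = 1.22e-07) or 2.28-fold. Neat1 fell from 884, 950, 923 and 960 TPM to 515 to 612 TPM, a log2 change of -0.39 (SE 0.059, limma adjusted p = 0.000532). The log2 scaling factor differed by -0.31 between these groups, and by -0.20 to -0.33 between IFN-γ and IL-10, so that scaled fold changes are higher than those of TPM as deposited by these amounts. All 5 tested members were called in this comparison, 4 higher and 1 lower, where 52.7% of genes were called, 27.7% higher and 25% lower (3780 and 3405 genes, against 2560 and 5572 without scaling, which moved the median of all genes from 0.01 to -0.24).

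The snoRNA hosts rose together in IFN-γ non-phagocytic macrophages against M0. Snhg1 was at 49.7, 40.3, 44.9 and 39.1 TPM in M0 and at 98.7, 103, 120 and 113 TPM with IFN-γ (log2 1.61, SE 0.0867, limma adjusted p = 1.14e-06). Gas5 was at 309, 306, 310 and 278 TPM and at 466, 552, 509 and 566 TPM (log2 1.10, SE 0.0648, limma adjusted p = 1.9e-06). Snhg8, a short host of Snora24, was at 133, 144, 124 and 144 TPM and at 183, 229, 236 and 186 TPM (log2 0.91, SE 0.0925, limma adjusted p = 5.28e-05). No M0 library reached the IFN-γ range of any of the 3 genes. With 52.7% of all genes called in this comparison, such separation may not be particular to these genes. T cell markers moved with this comparison, 19 of 20 higher and 1 lower (median 2.97). So did stromal markers, summed at 93.2 to 110 TPM in M0 and 2.62 to 5.36 TPM with IFN-γ, and B cell markers, at 15.0 to 30.3 and 78.6 to 141 TPM. The part of these cell types was not tested.

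Of the 10 other snoRNA hosts tested, from a list of 17, 8 were higher and 0 lower against M0 (median 1.15, against 0.01 over all genes). Snhg15 (log2 1.87, SE 0.0774, limma adjusted p = 2.62e-07) and Zfas1 (1.65, SE 0.0584, 1.22e-07) rose most. Dancr (1.15, SE 0.463, limma adjusted p = 0.0653) and Snhg17 (-0.44, SE 0.237, 0.149) did not pass the test, and both are named after their values were seen. Among the 909 other long non-coding RNA genes, 245 were higher and 93 lower (median 0.27). The genes for snoRNP proteins had 3 higher and 4 lower of 18, with Nufip1 up by 0.74 and Nolc1 down by 0.98 in log2 units (limma adjusted p = 0.000187 and 0.000891). Translation genes with oligopyrimidine starts had 11 higher and 3 lower of 16 (median 0.21). Hnrnpa1 rose by 1.13, and elongation factor Eef2 fell by 0.69 (limma adjusted p = 1.8e-05 and 2.2e-06). Without scaling, the 10 hosts had 7 higher and 1 lower (median 0.89), the snoRNP genes 1 higher and 10 lower, and the oligopyrimidine genes 7 higher and 7 lower, with a median that turned to -0.10.

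**Figure D5:**
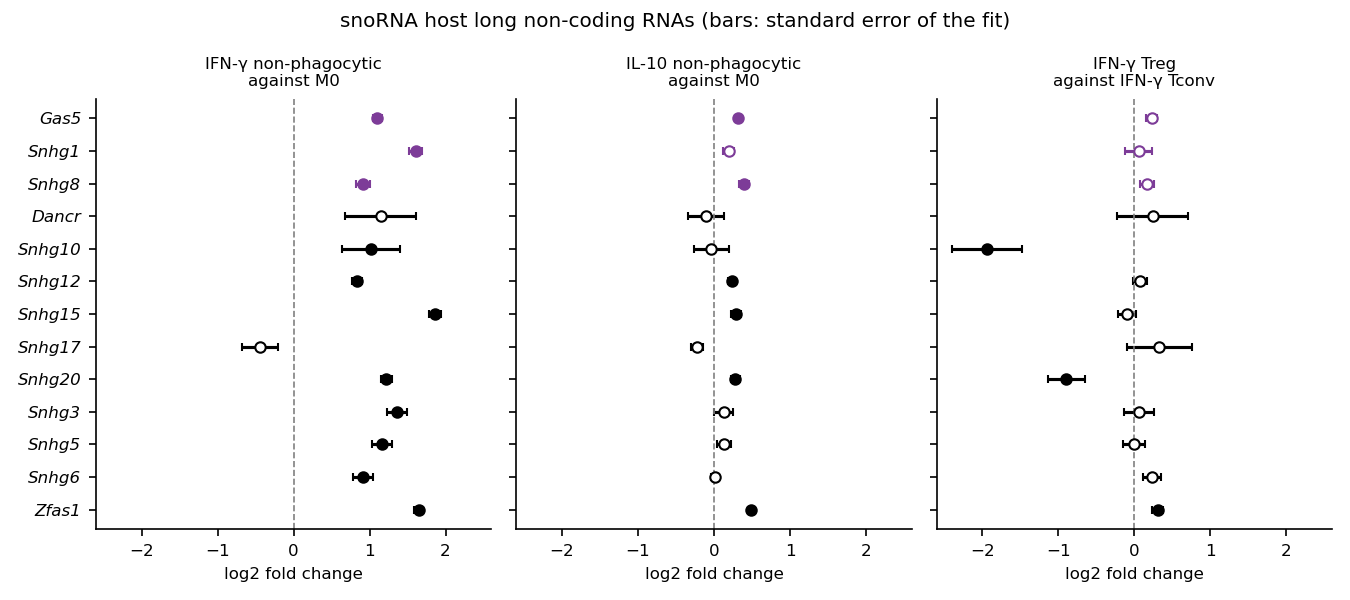
Log2 fold changes of 13 snoRNA host long non-coding RNAs in 3 comparisons, the members Gas5, Snhg1 and Snhg8 first. Bars are standard errors of the fit, and filled points had an adjusted p under 0.05. Against M0, 11 of the 13 were called higher with IFN-γ and 6 of the 13 with IL-10, while Treg against Tconv uptake under IFN-γ gave 1 higher and 2 lower.

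Speckle and paraspeckle genes also changed with IFN-γ against M0. Of 24 genes for nuclear speckle proteins, 16 were higher and 2 lower (median 0.47), with Luc7l3 at 2.69 and the splicing factor gene Srsf1 at 2.12 in log2 units (limma adjusted p = 9.75e-08 and 5.22e-08), and Son, for a speckle scaffold, at -0.53 (2.83e-05). Of 20 genes for paraspeckle proteins, 12 were higher and 3 lower (median 0.66), with Rbmx at 2.79 and Hnrnph3 at 2.33 (limma adjusted p = 7.36e-07 and 6.15e-08). Nonsense-mediated decay factors had 9 higher and 4 lower of 22, among them the kinase Smg1 at 1.23 (SE 0.0734, limma adjusted p = 2.13e-06). Neighbours of Malat1 and Neat1 on the chromosome had 2 higher and 6 lower of 11 (median -0.30), from Ltbp3 at -1.26 to Pola2 at 1.49 (limma adjusted p = 1.06e-05 and 0.00024). Without scaling, speckle genes had 11 higher and 4 lower (median 0.17), paraspeckle genes 10 higher and 5 lower (0.36), and decay factor genes 4 higher and 7 lower, with a median that turned to -0.01.

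Kcnq1ot1 was at 0.09, 0.1, 0.08 and 0.08 TPM in M0 and at 0.24 to 0.27 TPM in IFN-γ non-phagocytic libraries. On scaled TPM it was 3.59-fold higher with no overlap (exact permutation p = 0.0286, 0.0629 adjusted over 11 comparisons). The fold is smaller on TPM as deposited, since the log2 scaling factors of these groups differed by -0.31. Of the genes of the Kcnq1 imprinted domain, 9 of 15 were tested, and only Tspan32 was called with IFN-γ (log2 0.74, limma adjusted p = 0.000529). Without scaling, 1 of the 9 was called higher and 2 lower, and their median turned from 0.11 to -0.19. Cdkn1c, a cell cycle inhibitor imprinted in the domain, was at 70.8 ± 8.59 TPM in M0 and 57.7 ± 11.6 TPM with IFN-γ (SD, n = 4; log2 0.00, limma adjusted p = 0.995). With IL-10 it fell to 21.9 ± 4.51 TPM (log2 -1.67, SE 0.145, limma adjusted p = 5.04e-05), while Kcnq1ot1 stayed at 0.08 to 0.1 TPM in the IL-10 non-phagocytic libraries.

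IL-10 non-phagocytic macrophages, set against the same M0 libraries, had Malat1 higher by 0.60 (SE 0.0225, limma adjusted p = 3.23e-07) and Neat1 higher by 0.27 (SE 0.0312, 0.000275) on the log2 scale. Gas5 rose by 0.32 (SE 0.0358, limma adjusted p = 0.000248) and Snhg8 by 0.39 (SE 0.0621, 0.00177). Snhg1 was at 0.19 (SE 0.0769, limma adjusted p = 0.105) with overlapping groups, and it was called without M0 library 1 (0.0284, range over alternatives 0.0231 to 0.439). These were 4 of the 5 tested members, all higher, where 26.6% of genes were called, 13.6% higher and 13% lower. Among the 10 other snoRNA hosts, 4 were higher and 0 lower, led by Zfas1 (0.49, SE 0.0368, limma adjusted p = 2.07e-05). Speckle genes had 7 higher and 1 lower of 24, with Srrm2 at 0.43 (SE 0.0235, limma adjusted p = 2.75e-06). Macrophage markers had 11 higher and 3 lower of 14. Stromal markers had 4 lower and 0 higher of 5, summed at 66.8 to 73.2 TPM with IL-10 and 93.2 to 110 TPM in M0. T cell markers had 0 higher and 2 lower of 20. The part of these cell types was not tested.

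Between the cytokines, the snoRNA hosts were higher with IFN-γ whatever had been taken up. Snhg1 was higher by 1.42 (SE 0.0727) in non-phagocytic, 1.51 (SE 0.0559) in Tconv-phagocytic and 1.30 (SE 0.183) in Treg-phagocytic macrophages on the log2 scale. Gas5 was higher by 0.79, 0.70 and 0.93, and Snhg8 by 0.52, 0.54 and 0.80, in the same order. Their limma adjusted p lay between 9.76e-08 and 0.00109. Snhg8 in non-phagocytic macrophages lost its call without scaling (log2 0.19, adjusted p = 0.104, range over alternatives 2.2e-05 to 0.104), where its TPM ranges overlap at 183 to 236 and 172 to 199.

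Neat1 was lower with IFN-γ than with IL-10 in all 3 comparisons, by 0.67, 0.33 and 1.39 on the log2 scale in non-phagocytic, Tconv-phagocytic and Treg-phagocytic macrophages (limma adjusted p = 8.48e-06, 0.0172 and 3.2e-06). The Tconv value was not called without a filter on low values (0.071, range over alternatives 0.001 to 0.071). The direction of Malat1 was not the same in the 3 uptake groups. It was higher with IFN-γ by 0.59 in non-phagocytic (SE 0.0437, limma adjusted p = 5.54e-06) and 1.04 in Tconv-phagocytic (SE 0.0958, 2.15e-05) macrophages. In Treg-phagocytic macrophages it was lower, with a log2 change of -0.34 (SE 0.0534, limma adjusted p = 0.00133), and no library of these pairs of groups overlapped. All 5 tested members were called in each comparison, where 50.7%, 51.7% and 36.4% of genes were called. Other values moved between the cytokines as well. T cell markers were higher with IFN-γ, 20 of 20 in each comparison. Macrophage markers had 11, 11 and 8 of 14 lower in non-phagocytic, Tconv-phagocytic and Treg-phagocytic macrophages. Summed stromal markers were at 1.32 to 6.20 TPM with IFN-γ and 22.9 to 131 TPM with IL-10, and the mitochondrial share at 5.78% to 8.74% with IFN-γ and at most 5.27% with IL-10. The part of these was not tested. On scaled TPM, Kcnq1ot1 was 3.64-fold and 3.93-fold higher with IFN-γ in non-phagocytic and Tconv-phagocytic libraries, with no overlap (exact permutation p = 0.0286, adjusted 0.0629), and 1.14-fold in Treg-phagocytic ones, with overlap (p = 0.629).

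The order of the group means was not shared by Malat1 and Neat1, nor by these and the snoRNA hosts. Malat1 ran from 769.6 ± 121 TPM in IFN-γ Tconv-phagocytic to 262.4 ± 23.7 TPM (SD, n = 4) with IFN-γ after Treg uptake. Its neighbours in that order overlapped between the IFN-γ Tconv-phagocytic and non-phagocytic groups and between the IL-10 phagocytic groups, and were separate elsewhere. Neat1 ran from 1136 ± 15.5 TPM in IL-10 non-phagocytic to 301.8 ± 28.7 TPM (SD, n = 4) with IFN-γ after Treg uptake, with the same 2 overlaps. For Gas5, Snhg1 and Snhg8 the 3 IFN-γ groups overlapped with each other at the top of the order. Below them, Gas5 ended at 300.8 ± 15.5 TPM in M0, Snhg8 at 136 ± 9.88 TPM in M0 and Snhg1 at 42.7 ± 2.72 TPM (SD, n = 4) with IL-10 after Tconv uptake. All neighbours in the order of Snhg8 overlapped. Kcnq1ot1 had its IFN-γ Tconv-phagocytic and non-phagocytic groups above all the others, which overlapped at 0.06 to 0.14 TPM.

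For Malat1, Neat1 and Gas5, the spread between libraries was wider in each IFN-γ group than in M0 or any IL-10 group. The coefficient of variation of Malat1 was 0.691% in M0 and 15.7% in IFN-γ Tconv-phagocytic libraries. That of Neat1 ran from 1.10% in IL-10 Tconv-phagocytic to 15.6% in IFN-γ Tconv-phagocytic libraries. The other 3 genes did not follow this. Snhg1 had its smallest coefficient, 3.39%, in IFN-γ Tconv-phagocytic libraries and its greatest, 27.8%, after Treg uptake under IFN-γ. Snhg8 ran from 5.73% to 13.7% and Kcnq1ot1 from 4.98% to 44.5%, each with both ends in IFN-γ groups.

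Among the tested members, Gas5 and Snhg8 had the most similar pattern over the 7 group means, with a root mean square difference of 0.10 on the log2 scale after centring. Neat1 and Snhg1 were farthest apart, at 1.14, and Malat1 and Neat1 differed by 0.65. Of 8723 other genes with a mean of at least 5 TPM, the 3 with the smallest difference from each member were taken as a description of likeness over 7 group means. For Malat1 these were Gsap (0.09), Srrm2 (0.10) and Htt (0.10), against a median of 0.57 over the 8723 genes. Srrm2, the speckle scaffold, was at 378 ± 6.65 TPM in M0, 836.3 ± 130 TPM in IFN-γ Tconv-phagocytic and 320.8 ± 30.5 TPM (SD, n = 4) with IFN-γ after Treg uptake. Nearest to Neat1 were Rbm47 (0.13), an RNA-binding protein, the pseudogene AC122821.1 (0.15) and Zfp397 (0.15). Nearest to Gas5 were Pfdn1 (0.08), Cox7c (0.08) and Med31 (0.08). Snhg1 was nearest to Bclaf1 (0.07), Acap1 (0.08) and Hnrnpa2b1 (0.10), and Snhg8 to Ndufa6 (0.05), the snoRNA host Snhg12 (0.06) and the cell cycle inhibitor Cdkn1a (0.06).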

How the data were processed

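RNA was measured in 28 libraries of mouse macrophages, 7 groups of 4, grouped by the labels' titles. The authors deposited TPM per Ensembl gene, with 2 decimals. Per the submitters' processing notes, STAR, RSEM and mm10 were used, and versions, annotation and strand setting are not given in the sources used here. Per the labels' protocols, RNA was extracted with RNAiso PLUS and made into NEBNext Ultra II Directional libraries. The dye in the titles and that in the library names disagree for all 8 Treg-phagocytic libraries, and titles were used. Of 55487 gene IDs, 55141 matched a symbol.

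TPM was divided by an unweighted trimmed mean of log2 ratios (30% of ratios and 5% of levels trimmed). Genes reaching 1 TPM in 4 or more libraries, 13631 in all, entered limma 3.58.1 (R 4.3.3; lmFit, eBayes with trend), fitted on log2(scaled TPM + 1), in the groups compared only, with Benjamini-Hochberg adjustment and a threshold of 0.05. The fits were tested on simulated data. The +1 understates changes of low genes. Kcnq1ot1 was tested by exact two-sided permutation. No total count is known. Depth is relative, read from 14527 genes with 1 transcript of 500.0 to 2000 nt, where 88.1% to 91.9% of low values lay within 0.15 reads of a whole number. Tests used all genes, and gene lists are described by counts and medians. The share of all genes whose groups did not overlap is not given here, so non-overlap of a member is a description. Genes beyond the members were named by rule: in each list the top 2 called genes in either direction, fixed markers, Kcnq1 and Cdkn1c, and the 3 nearest patterns per member. Alternatives were other scaling, pseudocounts, filters, samples in the fit, blocks, dyes and left-out libraries. The members and lists were chosen with earlier results of these data known. A gene that the naming rule gives is not reported here.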

Additional observations from a re-analysis of the deposited data

Results flagged for a closer look

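Among the 42 sets of 4 libraries (6 genes in 7 groups), 2 had a library far from the other 3, and chance flags about 1 in 20 such sets. Gas5 was at 278 TPM in M0 library 4, against a median of 309 TPM in the other M0 libraries. Kcnq1ot1 was at 0.22 TPM in the IFN-γ Tconv-phagocytic library BV421-1, against a median of 0.33 TPM in the others.

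The change of Malat1 and Neat1 with Treg uptake differed between IFN-γ and IL-10 by a test of the difference itself (limma). Against Tconv uptake, the log2 difference was -1.38 for Malat1 and -1.07 for Neat1. Against non-phagocytic macrophages it was -0.93 for Malat1 and -0.73 for Neat1. All 4 IFN-γ Treg-phagocytic libraries lay below the other IFN-γ libraries for both genes. The share of all genes that separated in this way is not given, so this is a description only.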

How the results depend on the processing

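Of 1300 values recomputed for the tested members and Kcnq1ot1, 1253 kept their direction and side of the threshold (or, for Kcnq1ot1, moved by less than the replicate spread). The counts of members called are not among these values. Under IFN-γ, 2 members were called for Treg against Tconv uptake, and 0 with BV421 libraries alone and 0 with Ax647 libraries alone. These are fits of 2 against 2 that called 0 of all genes. For IL-10 Treg against non-phagocytic, 2 members were called, 1 in the model of all 28 libraries and 4 without scaling. Of all 13631 genes, these fits called 1556, 639 and 2097. For IL-10 Tconv against non-phagocytic, 2 were called, 1 in the model of all 28 libraries, 3 without scaling and 1 to 2 with a library left out. Of all genes, these fits called 821, 253, 1135 and 500 to 615. The counts of members thus moved along with those of all genes. Gas5 for IL-10 Treg against non-phagocytic was called without Treg library BV421-2 (adjusted p = 0.046), and Snhg8 there without Ax647-1 (0.0483). For the difference of Treg against Tconv between cytokines, Gas5 was called without IFN-γ Treg library BV421-1 (0.0294) and Snhg1 without BV421-2 (0.0489). Directions that turned all belonged to changes that did not pass the test. Snhg1 for IFN-γ Treg against Tconv was at -0.063 without scaling, -0.25 with Ax647 alone and -0.13 to 0.19 with a library left out. Against non-phagocytic, Gas5 was at -0.05 without scaling and -0.040 to 0.076 with a library left out, and Snhg1 at -0.18 to 0.13. For IL-10 Treg against Tconv, Gas5 was at 0.041 with BV421 alone and -0.025 to 0.016 with a library left out, and Snhg8 at 0.0067 with Ax647 alone. The difference of Treg against non-phagocytic between cytokines for Snhg1 ran from -0.30 to 0.017. The cause was not tested. The alternatives for Kcnq1ot1 were chosen after seeing the data. Without scaling its log2 ratios for non-phagocytic IFN-γ against IL-10 and against M0 kept their direction and moved by more than the spread between replicates. With a library left out, it ran from -2.04 to -1.64 for IFN-γ Treg against Tconv.

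Replicate numbers did not pair the samples (correlations of deviations -0.03 to 0.09). With the replicate number as a block, 2 members were called for IFN-γ Treg against Tconv, 0 for IL-10 Treg against Tconv, and 5 for IL-10 non-phagocytic against M0, where Snhg1 was gained (log2 0.19, adjusted p = 0.0231). Of all genes, the block by title called 983, 83 and 3119 in these comparisons. The block left 5 members called in each IFN-γ against IL-10 comparison and for IFN-γ against M0, and 2 for the difference of Treg against Tconv. Between the cytokines it called 6300, 6547 and 4105 of all genes in non-phagocytic, Tconv-phagocytic and Treg-phagocytic macrophages. For IFN-γ against M0 it called 6564, and for the difference 1693. Calls over all genes for IFN-γ Treg against Tconv were 1710, and 983 with the block by title, 1024 by library name, 4400 in the model of all 28 libraries, 0 with BV421 alone and 0 with Ax647 alone. For IL-10 Treg against Tconv they were 189, and 83 and 63 with the blocks. The model of all 28 libraries gave 3830 for IFN-γ Treg against non-phagocytic (main 1136), 639 and 253 for IL-10 Treg and Tconv against non-phagocytic (1556 and 821) and 1797 for IL-10 against M0 (3624). With 1 library left out, the lowest counts were 1023 for IFN-γ Treg against Tconv (1023, 1033 and 1057 without Tconv BV421-2, Ax647-1 and Ax647-2) and 682 for IFN-γ Treg against non-phagocytic (732, 696 and 682 without non-phagocytic 1, 2 and 4). Under IL-10 they were 104 for Treg against Tconv (105 and 104 without Tconv BV421-1 and Ax647-2, 115 and 107 without Treg BV421-1 and BV421-2), 957 for Treg against non-phagocytic (without non-phagocytic 3) and 500 for Tconv against non-phagocytic (500 without non-phagocytic 3, 514 and 544 without Tconv BV421-2 and Ax647-2). For IFN-γ Tconv against non-phagocytic the count was 1, and 2, 2 and 4 without non-phagocytic 3 and 4 and Tconv Ax647-2. Relative depth was lowest in the IFN-γ libraries, and the estimated reads of Kcnq1ot1 were lowest in the 4 IFN-γ Treg-phagocytic ones.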
